A study of Homo sapiens with 3 samples.

Results

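The genes of AMP-activated protein kinase (AMPK) and of the LKB1 complex that activates it were followed in parental HepG2 cells and in HepG2/metR cells without and with oxamate. The 10 genes were chosen by symbol from the 25270 symbols in the data: PRKAA1 and PRKAA2 for the catalytic alpha subunits, PRKAB1 and PRKAB2 for beta, PRKAG1, PRKAG2 and PRKAG3 for gamma, and STK11, STRADA and CAB39 for the LKB1 complex. All 10 symbols were found. HepG2 is an established human hepatocellular carcinoma line. HepG2/metR cells are described by the study as HepG2 cells that survived metformin for more than 5 months, and they served as a model of high lactate output. The sources used here do not say whether metformin was still in the medium at harvest. Oxamate, an inhibitor of lactate dehydrogenase, was given to HepG2/metR cells at 40 mM for 24 h. The study describes a serum-supplemented medium for its HepG2 cells and names no other medium for HepG2/metR. Total RNA of each condition was sequenced as 1 library. No difference below has a replicate check, and no p-value is given.

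AMPK is a trimer. Its alpha subunit holds the kinase domain, its beta subunit binds glycogen and holds the complex together, and its gamma subunit binds AMP, ADP and ATP and so senses the energy state of the cell. LKB1, encoded by STK11, phosphorylates the activation loop of the alpha subunit when it is bound to the pseudokinase STRAD and the scaffold protein MO25, encoded by STRADA and CAB39. In liver cells active AMPK restrains the synthesis of fatty acids, cholesterol and glucose, and metformin, which inhibits complex I of the respiratory chain, is known to activate it. Transcript levels do not measure phosphorylation or kinase activity.

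The values are FPKM, fragments scaled to transcript length and library size, recovered from the deposited log2(FPKM + 1) values. Unless said otherwise, sets of 3 values are ordered parental, untreated HepG2/metR, oxamate-treated HepG2/metR. The FPKM sums were 562382, 534646 and 473773. Read numbers are unknown, but the smallest values put the HepG2/metR library at 1.21 times and the oxamate-treated library at 1.24 times the depth of the parental library. Genes at 1 FPKM or above numbered 11356, 11414 and 11649.

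All libraries carry the tissue label liver, and the hepatocyte markers went against that label in both HepG2/metR libraries. In HepG2/metR, 15 of 15 hepatocyte markers were lower by 2-fold or more, beside 17.6% of all genes with a mean of at least 1 FPKM. The summed FPKM of the 15 markers was 36212, 14.3 and 11.6. The most abundant of them, APOA2, was listed at 11976, 0.407 and 0.273 FPKM, and HNF4A, a transcription factor that maintains hepatocyte identity, at 68.7, 0.0156 and 0.0153 FPKM. Levels under 1 FPKM were listed for 13 of the 15 markers in each HepG2/metR library, so these 13 reached a mean of 1 FPKM only through their parental level. Of these, APOA1, APOC3, TTR, FGA, FGG and RBP4 were at 0 in HepG2/metR, and APOC3 and TTR also with oxamate. Of 4 epithelial markers, CDH1 and EPCAM were near 0 in both HepG2/metR libraries, at up to 0.0900 FPKM, while KRT8 and KRT18 were at 605 FPKM or more in every library. The mesenchymal filament gene VIM, in a list of 7 fibroblast and stellate markers whose sum was 28.8, 1587 and 1159 FPKM, was at 1.23, 1576 and 1140 FPKM, but the collagen genes COL1A1, COL1A2 and COL3A1 were at 1.22 FPKM or less throughout and DES was at 0. Of the other genes in that list, ACTA2 was lower in HepG2/metR, at 22.5, 7.36 and 11.2 FPKM, and PDGFRB was higher with oxamate, at 3.43, 3.66 and 7.26 FPKM. Of 3 biliary markers, with sums of 259.5, 154.7 and 133.5 FPKM, KRT7 was higher and KRT19 and SOX9 were lower in HepG2/metR. The 3 endothelial markers summed to 0.314 FPKM or less in each library. The 4 leukocyte markers summed to 2.30, 0.748 and 0.647 FPKM, of which CD14 gave most. In a bulk library, fewer cells of a type and less RNA per cell cannot be told apart. Whether the libraries labelled HepG2/metR come from the same line as the parental library was not tested, so values between the lines compare libraries by their labels. The part of this loss of hepatocyte transcripts in the differences between parental and HepG2/metR cells described below was not tested.

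Change is given as a difference of log2(FPKM + 1) values, which understates the change of low genes, and was called at 2-fold between the lines and at 1.5-fold with oxamate. Of the 10 genes, 9 had a mean of at least 1 FPKM over the libraries, as did 12210 of all genes. PRKAG3 did not. Between HepG2/metR and parental cells, 2 of the 9 genes, PRKAG1 and PRKAG2, were at least 2-fold higher (22.2%), beside 16.6% of all genes kept. PRKAB2 alone was at least 2-fold lower (11.1%), beside 17.6%. For the 9 genes the median change was 0.13, and for all genes kept 0.015, and the median absolute changes were 0.56 and 0.65. Of the 9 genes, PRKAG2 lay farthest from 0. Only 231 of the genes kept (1.89%) were higher by as much as PRKAG2, against 1460 (12.0%) for PRKAG1, and 1825 (14.9%) were lower by as much as PRKAB2.

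With oxamate, 2 of the 9 genes, PRKAA2 and PRKAB2, were at least 1.5-fold higher than in untreated HepG2/metR cells, beside 4.30% of all genes kept. None of the 9 was at least 1.5-fold lower, beside 3.82%. The other 7 genes lay between -0.17 and 0.05 on the log2 scale, and the median absolute change of the 9 was 0.05, against 0.21 over all genes kept. Of these 7, PRKAB1, PRKAG1, STK11, STRADA and CAB39 changed sign under at least 1 scaling between libraries, so the signs of their oxamate changes are not read as directions. When libraries were brought to equal totals, the share of oxamate calls that were higher moved from 53% to 86% (88.2% without small-RNA genes). The median change of all genes moved to 0.17 and 0.18 in those settings, and PRKAA2, at 0.95 and 0.97, and PRKAB2, at 0.88 and 0.90, exceeded it. The treated library can also be set against parental cells, which leaves out the untreated HepG2/metR library. In that comparison PRKAG1 and PRKAG2 were again at least 2-fold higher, beside 18.0% of all genes kept, and none of the 9 was at least 2-fold lower, beside 17.6%. The comparisons share libraries, so they are not independent of each other.

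**Figure D1:**
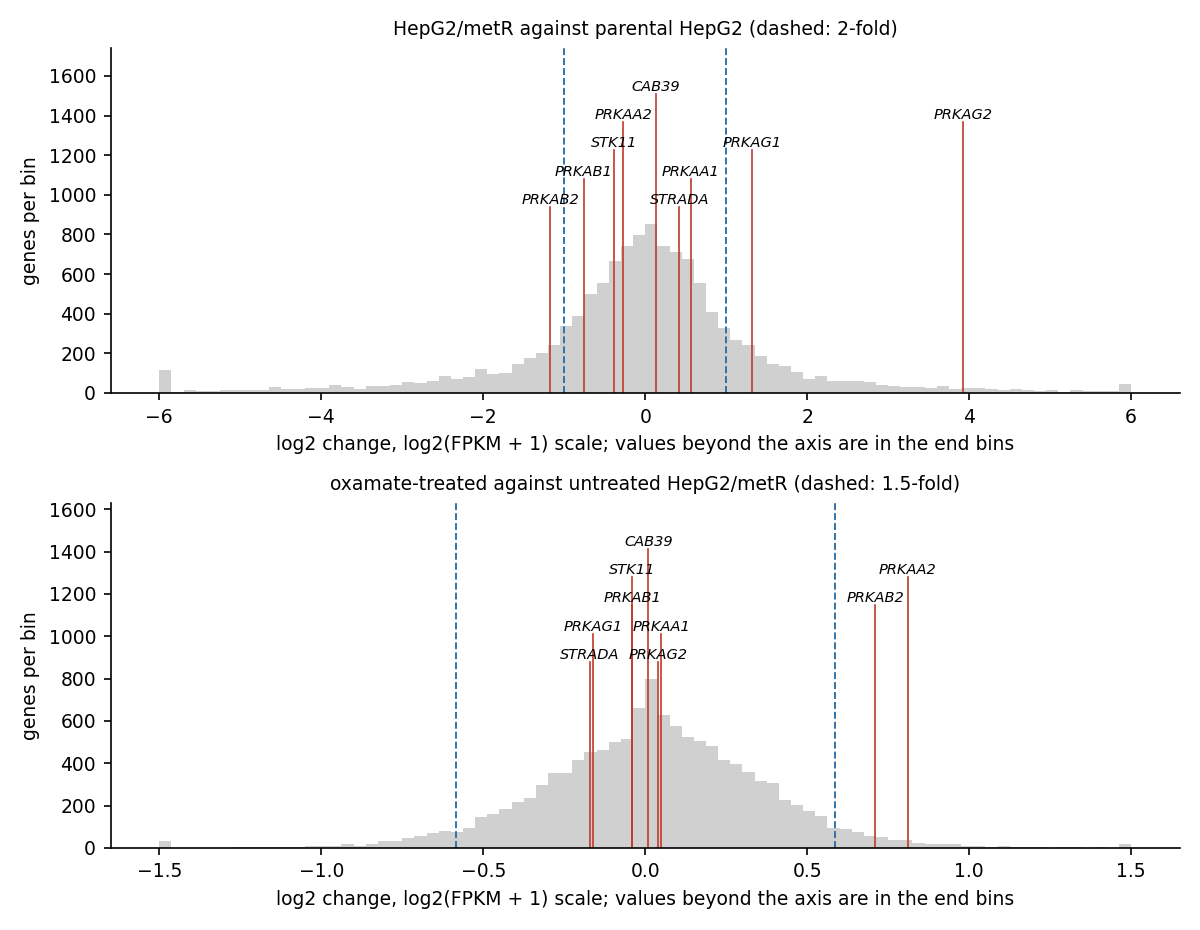
Log2 change of the 9 AMPK and LKB1 complex genes kept (red lines) over histograms of all 12210 genes kept, for HepG2/metR against parental HepG2 (upper panel) and oxamate-treated against untreated HepG2/metR (lower panel, with a narrower axis). Dashed lines mark 2-fold and 1.5-fold: PRKAG2 at 3.92, PRKAG1 at 1.32 and PRKAB2 at -1.17 lie past them above, and PRKAA2 at 0.81 and PRKAB2 at 0.71 below.

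The 250 bases before the transcription starts of the genes past a threshold are printed here because these are the genes that moved. The sequences are from RefSeq on GRCh38.p14, whereas the reads were aligned to hg19, and they run 5' to 3' on the gene's own strand. Of the 10 genes, 9 matched the promoter table, with 14 windows. STRADA did not match. Capitals mark GC boxes, GGGCGG on either strand, a motif bound by SP family factors that 42.6% of all 35116 windows of this length hold. The E2F motif, TTTCGCGC or TTTGGCGC, and the E-box CACGTG were searched on both strands too, with overlapping matches counted, and no spelling contains another. They are in 0.968% and 6.34% of all windows and in 0 of the 14. A match describes letters only, and its absence says nothing about a factor. PRKAG2 has 5 starts in the table, of which the most upstream, on the minus strand at chr7:151877116-151877365, has 2 GC boxes and 30 CG pairs, and the last, within the gene at chr7:151632234-151632483, has 4 GC boxes and 41 CG pairs. The 3 windows between them have 0 GC boxes and at most 6 CG pairs, where the median of all windows is 11. PRKAG1 (minus strand, chr12:49018777-49019026) has 4 GC boxes and 25 CG pairs. PRKAA2 (plus strand, chr1:56645064-56645313) has 5 GC boxes and 39 CG pairs, and PRKAB2 (minus strand, chr1:147172471-147172720) has 1 GC box and 27 CG pairs.
PRKAG2 most upstream start: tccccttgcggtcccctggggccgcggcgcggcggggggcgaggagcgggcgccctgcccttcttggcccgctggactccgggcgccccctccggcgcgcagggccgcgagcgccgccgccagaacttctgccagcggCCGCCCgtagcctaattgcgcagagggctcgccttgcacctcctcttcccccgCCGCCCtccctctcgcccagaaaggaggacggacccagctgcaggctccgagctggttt
PRKAG2 last start: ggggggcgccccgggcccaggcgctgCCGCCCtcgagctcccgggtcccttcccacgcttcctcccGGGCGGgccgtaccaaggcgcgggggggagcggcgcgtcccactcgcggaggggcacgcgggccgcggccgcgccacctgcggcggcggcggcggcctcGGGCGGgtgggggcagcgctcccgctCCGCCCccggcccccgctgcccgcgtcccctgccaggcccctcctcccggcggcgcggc
PRKAG1: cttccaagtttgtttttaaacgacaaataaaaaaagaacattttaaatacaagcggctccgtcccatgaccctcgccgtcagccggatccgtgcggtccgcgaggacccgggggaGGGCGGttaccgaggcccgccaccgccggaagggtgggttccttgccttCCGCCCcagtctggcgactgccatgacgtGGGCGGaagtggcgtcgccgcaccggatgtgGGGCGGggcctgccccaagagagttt
PRKAB2: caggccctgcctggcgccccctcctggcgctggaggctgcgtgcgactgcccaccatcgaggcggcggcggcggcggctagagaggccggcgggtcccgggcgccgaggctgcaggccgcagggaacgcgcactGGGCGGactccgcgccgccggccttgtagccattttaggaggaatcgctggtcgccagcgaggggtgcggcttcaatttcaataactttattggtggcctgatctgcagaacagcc
PRKAA2: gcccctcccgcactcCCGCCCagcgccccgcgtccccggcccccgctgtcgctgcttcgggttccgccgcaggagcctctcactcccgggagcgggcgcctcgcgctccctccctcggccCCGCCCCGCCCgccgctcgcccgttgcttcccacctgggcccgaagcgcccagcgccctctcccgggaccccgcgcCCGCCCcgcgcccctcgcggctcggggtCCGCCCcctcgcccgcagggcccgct

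The catalytic subunits changed little between the lines. PRKAA1, the main alpha isoform here, was at 16.7, 25.0 and 26.0 FPKM. Its level was lowest in parental cells, with a log2 change of 0.56 between the lines, short of 2-fold. PRKAA2, the isoform best known from muscle and also present in liver, was at 3.58, 2.79 and 5.64 FPKM. It was the lower alpha isoform in every library, and the treated library was the highest of the 3. With oxamate its log2 change was 0.81, a ratio of FPKM of 2.02, and 163 of the genes kept (1.33%) were higher by as much. Between the lines its log2 change was -0.27, and it was 0.54 for treated HepG2/metR against parental cells. PRKAA2 thus made up 17.7% of the summed alpha FPKM in parental cells, 10.1% in HepG2/metR and 17.8% with oxamate.

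Both beta subunit genes were listed lower in HepG2/metR than in parental cells. PRKAB2 was at 26.4, 11.1 and 18.9 FPKM, so the untreated HepG2/metR library was lowest and the treated library lay between the others. It was 2.37-fold lower in HepG2/metR by FPKM, with a log2 change of -1.17. With oxamate it was 1.70-fold higher by FPKM, with a log2 change of 0.71. Against parental cells the treated library was within 2-fold, at -0.46, so the call on PRKAB2 between the lines rests on the untreated HepG2/metR library. PRKAB1 was at 17.6, 9.99 and 9.72 FPKM, with log2 changes of -0.76 between the lines and -0.04 with oxamate, the latter 0.12 with libraries at equal totals. This gene was within 2-fold and nearly level in both HepG2/metR libraries. PRKAB2 was the larger part of the beta class in every library, at 60% of its summed FPKM in parental cells, 52.7% in HepG2/metR and 66% with oxamate.

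The gamma subunits differed most between the lines. PRKAG2, the isoform mutated in an inherited cardiomyopathy with glycogen storage, was at 1.07, 30.4 and 31.3 FPKM. It was close to the filter on low values in parental cells and among the more abundant of the 10 genes in both HepG2/metR libraries. The ratio of FPKM between the lines was 28.4, and the log2 change was 3.92, or 3.96 with the treated library in place of the untreated one. Oxamate itself went with a change of 0.04. PRKAG1, the broadly expressed gamma isoform, was at 16.9, 43.7 and 39.1 FPKM. Both HepG2/metR libraries were above the parental library, 2.58-fold by FPKM without oxamate, with log2 changes of 1.32 and, for the treated library, 1.16. With oxamate its change was -0.16, or 0.01 with libraries at equal totals. PRKAG3, expressed mainly in skeletal muscle, was listed at 0 in parental and HepG2/metR cells and at 0.0158 FPKM with oxamate. Beside these gamma values stand the hepatocyte markers, 15 of 15 lower in HepG2/metR, against 17.6% of all genes kept. Of these markers, 13 were kept only through their parental level.

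The gamma class therefore had another makeup in HepG2/metR cells. PRKAG1 made up 94% of the summed gamma FPKM in parental cells, 59% in HepG2/metR and 55.6% with oxamate, and PRKAG2 5.95%, 41% and 44.4%. Expressed as a ratio of FPKM, PRKAG1 exceeded PRKAG2 15.8 times in parental, 1.44 times in HepG2/metR and 1.25 times in treated cells. Shares within a library do not depend on scaling between libraries. How PRKAG2 transcripts of different length, made from its several starts, entered the FPKM values was not tested. An antisense gene, PRKAG2-AS1, starts on the opposite strand inside PRKAG2, 73 bases from its most upstream RefSeq start. It was listed at 0, 0.536 and 0.236 FPKM. By these starts the genes share the stretch between them. No source used here states that strand was used in counting, so reads in the shared stretch cannot be told apart.

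**Figure D2:**
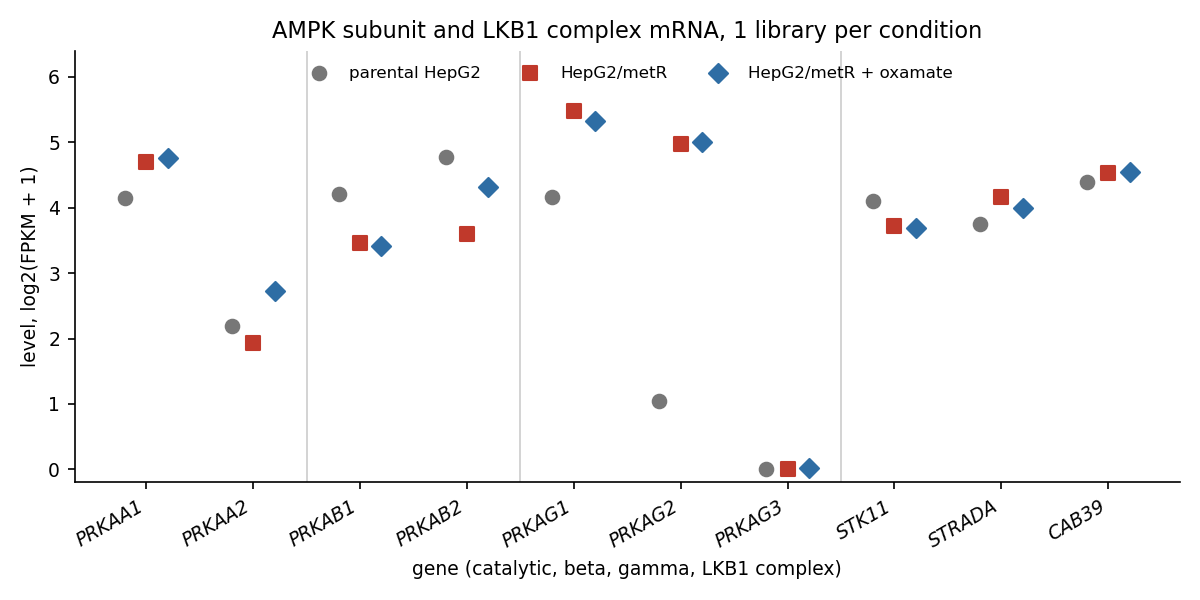
Level of the 10 genes as log2(FPKM + 1), 1 point per gene and library, for parental HepG2 (grey circles), HepG2/metR (red squares) and oxamate-treated HepG2/metR (blue diamonds). PRKAG2 lies at 1.07 FPKM in the parental library and at 30.4 and 31.3 FPKM in the HepG2/metR libraries, and PRKAG3 lies at or near 0 in all.

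**Figure D3:**
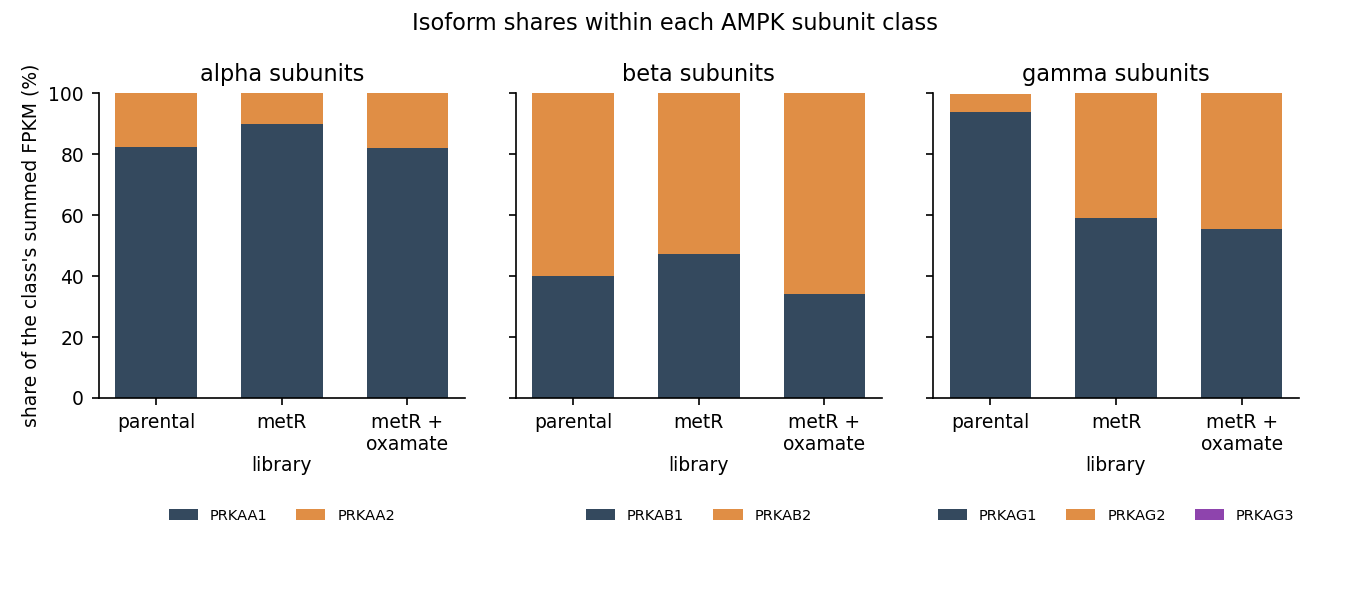
Share of each isoform in the summed FPKM of its AMPK subunit class, in percent, as stacked bars for the 3 libraries. PRKAG2 takes 5.95%, 41% and 44.4% of the gamma class from left to right, and PRKAG3 is too small to see.

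The LKB1 complex differed less than the gamma subunits. STK11, the kinase itself, was at 16.2, 12.3 and 11.9 FPKM, a log2 change of -0.38 between the lines. STRADA, the pseudokinase that activates LKB1 and holds it in the cytoplasm, was at 12.5, 17.0 and 15.0 FPKM, with a change of 0.42. CAB39, the scaffold, was at 20.1, 22.1 and 22.4 FPKM, with a change of 0.13. All 3 genes were within 2-fold between the lines and between -0.17 and 0.01 with oxamate, where each changed sign under at least 1 scaling, and their sum was 48.8, 51.4 and 49.2 FPKM. The ratio of STK11 to CAB39 FPKM was 0.805 in parental, 0.553 in HepG2/metR and 0.533 in treated cells, and that of STK11 to STRADA 1.30, 0.721 and 0.797. STRADB, a paralog of STRADA, was at 24.8, 10.2 and 11.9 FPKM, 2.43-fold lower in HepG2/metR, so that the ratio of STRADA to STRADB was 0.503, 1.67 and 1.26. The other paralog, CAB39L, was at 1.71, 2.19 and 2.37 FPKM, well under CAB39 in each library.

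Since AMPK contains 1 subunit of each class, the classes were also summed. The alpha sum was 20.3, 27.8 and 31.6 FPKM. The beta sum was 44.0, 21.1 and 28.6 FPKM, and the gamma sum 18.0, 74.1 and 70.4 FPKM. Beta was thus the most abundant class in parental cells and gamma in both HepG2/metR libraries. The ratio of gamma to beta FPKM was 0.41 in parental, 3.51 in HepG2/metR and 2.46 in treated cells, and that of beta to alpha 2.17, 0.759 and 0.904. Between the lines the gamma sum was 4.12-fold higher, the alpha sum 1.37-fold higher and the beta sum 2.08-fold lower. The beta sum passed 2-fold narrowly, and not under 3 of the scalings tried. With oxamate the ratios to untreated cells were 1.14 for alpha, 1.35 for beta and 0.949 for gamma, the last of which changed direction with libraries at equal totals. In those settings the beta sum passed 1.5-fold, with log2 ratios of 0.61 and 0.63 in place of 0.44. Amounts of protein or of assembled trimer were not measured.

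**Figure D4:**
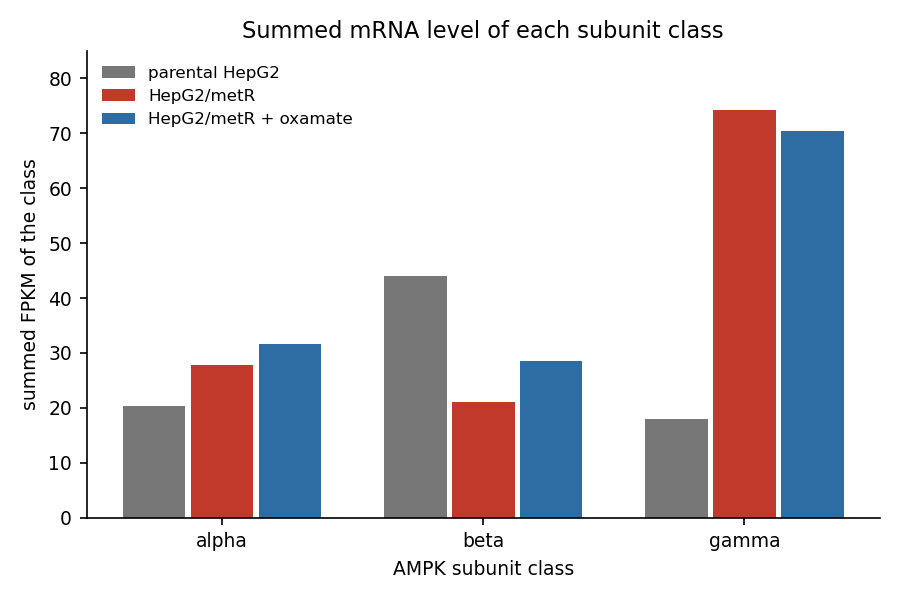
Summed FPKM of the alpha, beta and gamma subunit genes of AMPK in each library (1 bar per class and library, axis from 0). The beta bar is the tallest in parental HepG2 (44.0 FPKM) and the gamma bar in HepG2/metR (74.1) and oxamate-treated HepG2/metR (70.4).

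Ordered by FPKM within a library, the 10 genes ran from PRKAB2 (26.4) and CAB39 (20.1) at the top to PRKAA2 (3.58), PRKAG2 (1.07) and PRKAG3 (0) at the bottom in parental cells. PRKAB1, PRKAG1, PRKAA1 and STK11 lay close together there, between 16.2 and 17.6 FPKM, and with 1 library their order cannot be ranked against error. In HepG2/metR cells the order began with PRKAG1 (43.7), PRKAG2 (30.4) and PRKAA1 (25.0), and the beta genes stood below STK11. With oxamate PRKAG1, PRKAG2, PRKAA1 and CAB39 kept places 1 to 4, and PRKAB2 moved from place 7 to 5. PRKAG2 exceeded 10.7% of the genes kept in parental cells, 78.5% in HepG2/metR and 80.2% with oxamate.

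The wider pathway was read from 9 lists with 57 genes, of which 52 had a mean of at least 1 FPKM. Of the 52, between HepG2/metR and parental cells, 10 were higher by 2-fold or more, 7 were lower by as much and 35 were within 2-fold, with a median log2 change of -0.05. Over all genes kept, 16.6% were higher and 17.6% lower by as much, with a median of 0.015. Several of these genes passed the filter only through the libraries in which they were high, so the counts describe them and support nothing further. With oxamate 5 were at least 1.5-fold higher, 2 were at least 1.5-fold lower and 45 were within 1.5-fold, with a median of 0.08, beside 4.30% higher, 3.82% lower and a median of 0.021 over all genes kept.

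Among 3 other kinases upstream of AMPK, CAMKK1, a calcium-dependent kinase kinase, was at 1.03, 4.71 and 4.36 FPKM in parental, HepG2/metR and treated cells, a log2 change of 1.49 between the lines. CAMKK2, the better known AMPK kinase of that pair, was at 12.2, 10.1 and 10.3 FPKM, and MAP3K7 at 12.3, 9.21 and 11.6. CAMKK2 still exceeded CAMKK1 in each library, 11.8 times in parental but 2.13 times in HepG2/metR cells. Of the 12 AMPK-related kinases, which LKB1 also activates, 4 were higher in HepG2/metR and 0 lower, beside 16.6% and 17.6% of all genes kept, and MARK1 and BRSK1 were kept only through their levels in HepG2/metR. NUAK1, linked to cell adhesion and survival, was at 2.47, 13.9 and 22.4 FPKM and passed both thresholds, with 2.10 between the lines and 0.65 with oxamate. NUAK2 was at 1.51, 6.97 and 5.72 FPKM and BRSK1 at 0.213, 2.94 and 4.39. MARK1, a kinase of microtubule-associated proteins, was listed at 0, 3.60 and 3.62 FPKM, and its relative MARK4 was 1.63-fold higher by FPKM with oxamate, at 5.18, 5.14 and 8.40 FPKM.

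Of 7 phosphatases and ubiquitin ligase genes that act on AMPK, 6 were kept and 2 of them were higher in HepG2/metR, beside 16.6% of all genes kept. These were MAGEA3, at 0, 28.9 and 24.4 FPKM, and MAGEA6, at 0.0552, 29.7 and 26.5, whose products direct the ligase TRIM28 to the AMPK alpha subunit. Both were kept only through their levels in HepG2/metR. They are near-identical copies that can share reads, so their separate values are uncertain. TRIM28 itself was at 103.6, 149.6 and 113.5 FPKM, within 2-fold. PPM1E was not kept, at up to 0.698 FPKM. In the lysosomal axis through which AXIN brings LKB1 to AMPK, 1 of 5 genes was lower in HepG2/metR, beside 17.6% of all genes kept, and 2 were higher with oxamate, beside 4.30%. FNIP2 was at 6.91, 1.39 and 1.82 FPKM. FLCN, whose product binds the FNIP proteins, was at 11.4, 9.90 and 15.7 FPKM, and FNIP1 at 6.22, 6.97 and 11.2, so both stood highest in the treated library.

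Enzymes that set adenine nucleotide levels, the signal that gamma subunits read, gave 1 higher and 2 lower of 7 kept, beside 16.6% and 17.6% of all genes kept. AK4, a mitochondrial adenylate kinase, was at 19.0, 1.94 and 0.845 FPKM and AK3 at 34.5, 7.43 and 7.53. ADK, which makes AMP from adenosine, was at 44.0, 109.2 and 80.5 FPKM, and AMPD1 and AK5 were not kept. Here the mitochondrial adenylate kinases were low and ADK was high in both HepG2/metR libraries, with ADK within 2-fold of parental cells after oxamate.

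Of 5 AMPK substrates of lipid metabolism kept, 0 were at least 2-fold higher and 2 were lower in HepG2/metR, beside 16.6% and 17.6% of all genes kept. MLXIPL, a carbohydrate-responsive transcription factor of liver, was at 31.4, 0.0336 and 0.0438 FPKM, low in the same libraries as the hepatocyte markers. This gene, among those called lower, was kept only through its parental level. SREBF1, a transcription factor of lipid synthesis, was at 15.3, 10.4 and 6.29 FPKM, a log2 change of -0.64 with oxamate. SREBF1 and AK4 were the 2 list genes at least 1.5-fold lower with oxamate, and neither was with libraries scaled to the same total. LIPE was not kept. The 4 substrates in mTORC1 signalling and autophagy, among them RPTOR (16.5, 7.75 and 9.14 FPKM) and ULK1 (5.26, 5.74 and 7.13 FPKM), were all within the fold thresholds on the log2(FPKM + 1) scale. RPTOR was just short of 2-fold on that scale between the lines, and 2.13-fold lower in HepG2/metR by FPKM.

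Of 8 substrates of glucose metabolism and mitochondria kept, 2 were higher and 1 was lower in HepG2/metR, beside 16.6% and 17.6% of all genes kept. PFKFB3, which makes the activator of phosphofructokinase, was at 2.65, 17.6 and 20.4 FPKM, a log2 change of 2.35. CRTC2, a coactivator of gluconeogenic genes, was at 6.34, 14.7 and 13.4 FPKM. PPARGC1A, a coactivator of mitochondrial biogenesis, was at 3.77 FPKM in parental cells, 0 in HepG2/metR and 0.0161 with oxamate. It was the gene called lower and was kept only through its parental level. PFKFB2 was 1.67-fold higher with oxamate by FPKM, at 5.11, 4.04 and 6.74 FPKM. GYS2, the liver isoform of glycogen synthase, was not kept and lay at or under 0.0231 FPKM in all libraries.

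**Figure D5:**
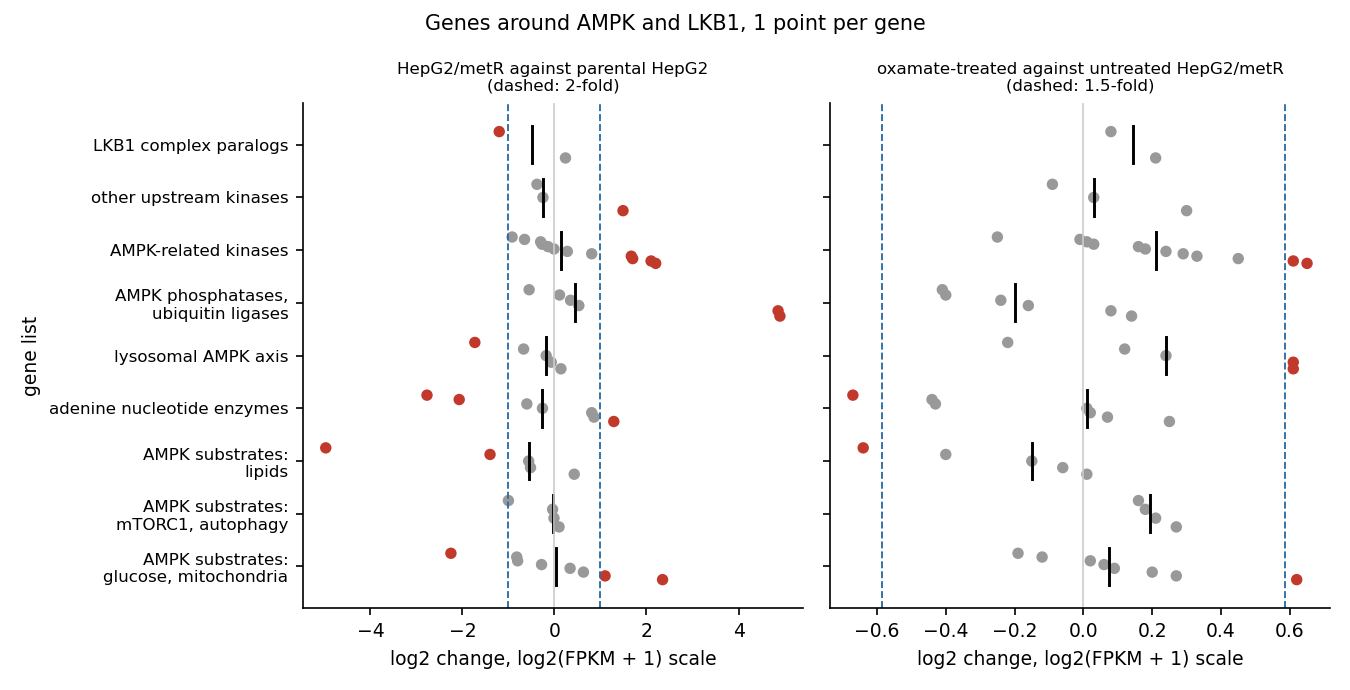
Log2 change of the 52 pathway genes kept, 1 point per gene in 9 lists, for HepG2/metR against parental HepG2 (left) and oxamate-treated against untreated HepG2/metR (right, with a narrower axis). Red points lie past the fold marked by the dashed lines (10 higher and 7 lower on the left, 5 higher and 2 lower on the right), and black bars are list medians.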

How the data were processed

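Total RNA was extracted with Trizol and sequenced by the authors from parental HepG2 cells and from HepG2/metR cells without and with oxamate, 1 library each. The authors deposited 1 log2 value per gene symbol and library. Its form, log2(FPKM + 1), was inferred from the values. The submitters' processing notes name STAR 2.5.1b, FastQC 0.11.5, Cufflinks 2.2.1 and hg19, and the annotation and filters are not given in the sources used here. Of 25270 symbols, 28 had become dates and could not be matched. Values were used without further scaling. The log2 change is the difference of deposited values, and a gene was kept if its FPKM averaged 1 or more. The folds of 2 and 1.5 follow the study's methods. The 10 genes and all lists were chosen with earlier results of these data known. All 10 genes are named, and of each pathway list at most the 4 largest changes between lines, the 3 largest with oxamate and genes too low to keep. Marker genes fall outside this rule and were named after their values were seen. A gene of the lipid list is not reported here by name. Relative depth was read from values under 0.15 FPKM. Alternatives were other pseudocounts, filters, folds and scalings. The calculation was tested on simulated data. Python 3.11, numpy 2.4.6, pandas 2.3.3 and matplotlib 3.10.9 were used. Promoter sequences came from RefSeq (GRCh38.p14).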

Additional observations from a re-analysis of the deposited data

How the results depend on the processing

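Pseudocounts of 0.1 and none, no filter or a mean of at least 5 FPKM, 4 scalings between libraries and other folds were tried. All 177 alternative values of the 9 genes kept and PRKAG3, from pseudocounts and scalings, left each gene on the same side of its fold threshold. PRKAG2 ranged from 3.91 to 4.83, PRKAG1 from 1.30 to 1.46 and PRKAB2 from -1.25 to -1.03 between the lines, and with oxamate PRKAA2 from 0.79 to 1.01 and PRKAB2 from 0.69 to 0.90. Small oxamate changes changed sign: with the same total, PRKAB1 went from -0.04 to 0.12, PRKAG1 from -0.16 to 0.01 and STK11 from -0.04 to 0.13; without small-RNA genes STRADA went from -0.17 to 0.01, and with size factors CAB39 from 0.01 to -0.01. The gamma sum with oxamate went from -0.08 to 0.10 (0.12 without small-RNA genes). The beta sum between the lines went from -1.06 to -0.91 with upper-quartile scaling and -0.99 with both same-total scalings, and with oxamate from 0.44 to 0.61 and 0.63; the cause was not tested. Of the 9 genes, the 2 called with oxamate became 1 at a mean of at least 5 FPKM, where PRKAA2 is not kept, and 0 at 2-fold. The 2 called for treated against parental cells became 4 at 1.5-fold, with PRKAA1 higher and PRKAB1 lower in addition. Over all genes, 525 higher and 466 lower with oxamate became 1018 and 607 with a pseudocount of 0.1, 1111 and 622 with none, 271 and 403 at a mean of at least 5, 1184 and 192 with the same total, 1289 and 173 without small-RNA genes, and 66 and 64 at 2-fold. Between the lines 2021 and 2147 became 1249 and 1428 at a mean of at least 5 and 3262 and 3301 at 1.5-fold. For treated against parental cells 2202 and 2155 became 1315 and 1486, and 3403 and 3376. There the share of calls that were higher moved from 50.5% to 60.7% and 61.3% with the same-total scalings. The median over all genes moved to 0.15 between the lines with upper-quartile scaling, and for treated against parental cells to 0.12 with it and to 0.22 and 0.24 with the same-total scalings. Among the 52 pathway genes, RPTOR passed 2-fold with size factors (-1.02), and under both same-total scalings BRSK1 passed 1.5-fold with oxamate (0.59 and 0.61). No paired analysis was possible because each condition has 1 library.

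The depth in reads is unknown, so counting error of low genes such as PRKAG2 in parental cells or PRKAG3 cannot be given. Levels are gene totals, and isoform mix was not measured.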

Other observations

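The 10 nearest genes with a mean of at least 1 FPKM around each of PRKAG2, PRKAG1 and PRKAB2, by gene order in RefSeq on GRCh38.p14, were listed after the changes of these 3 genes had been seen. Of all genes kept, 16.6% were higher and 17.6% lower by 2-fold or more. Around PRKAG2, 0 of 10 neighbours were higher by 2-fold or more in HepG2/metR over parental cells and 2 were lower by as much. Their log2 changes ran from -1.45 to 0.52. The lower ones were ACTR3B (4.58, 1.04 and 0.953 FPKM) and LINC01003 (2.75, 0.561 and 0.524 FPKM), of which LINC01003 was kept only through its parental level. The nearest on either side were RHEB, an activator of mTORC1, at 25.0, 36.1 and 29.1 FPKM in parental, HepG2/metR and treated cells, and GALNT11 at 9.32, 13.8 and 16.4 FPKM. Around PRKAG1, 3 of 10 neighbours were higher and 1 was lower, from -1.06 to 2.48. The higher ones were CACNB3 (0.312, 6.30 and 7.61 FPKM), WNT10B (0.0947, 2.02 and 1.93 FPKM) and RHEBL1 (1.11, 3.39 and 2.08 FPKM), of which CACNB3 and WNT10B were kept only through their levels in HepG2/metR. Around PRKAB2, 0 of 10 were higher and 1 was lower, the monooxygenase gene FMO5, at 21.1, 0.258 and 0.322 FPKM, kept only through its parental level. TXNIP, also among the 10 genes listed around PRKAB2, encodes an inhibitor of glucose uptake that AMPK is known to mark for degradation. It was at 32.2, 43.4 and 70.6 FPKM, a log2 change of 0.69 with oxamate. TUBA1B, among the 10 listed around PRKAG1, moved further and in the opposite direction, at 787.7, 1408 and 659.3 FPKM, a log2 change of -1.09 with oxamate. Without scaling between libraries no other neighbour passed 1.5-fold with oxamate, beside 4.30% higher and 3.82% lower of all genes kept.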
